A study of Arabidopsis thaliana with 6 samples.

Results

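Heat shock proteins and their relatives form a set of molecular chaperones, listed here as 43 Arabidopsis thaliana genes by locus tag. The list holds 16 small heat shock proteins (small HSPs), 17 members of the HSP70 family, 7 of the HSP90 family and 3 of the HSP100 family. A gene counted as measured if it had a probe set assigned to that gene alone, and where a gene had more than 1, its highest by mean log2 intensity over the 6 arrays stood for it. By this rule 12 members were measured, out of 13356 genes measured in the whole series. They comprise 8 small HSPs and 4 HSP70s. Of the other members, 2 small HSPs shared a probe set of several genes and are not described, and the HSP90 and HSP100 families had 0 measured members, so neither class was analysed here.

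Small HSPs hold unfolding proteins in a soluble state without using ATP, and HSP70s refold such proteins in cycles of ATP binding that cochaperones drive. HSP90s and HSP100s act after them, on late folding steps and on aggregates. Small HSP transcripts are known for being scarce in unstressed vegetative plant tissue and for rising steeply in heat, whereas constitutive HSP70 transcripts are abundant in growing cells. The gene table used here carries no descriptions, so class and compartment were assigned by locus from general knowledge, and a gene is called by its locus unless the table names it.

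Cells were sorted by fluorescence from roots of Col-0 seedlings aged 5 days that carried WOX5::GFP (3 arrays) or pTMO5::GFP (3 arrays), with no treatment beyond standard medium. Each reporter marks the cells in which its promoter is active, and the labels do not say how many plants or sorts stand behind an array. The array descriptions place the WOX5 reporter in the quiescent centre and the TMO5 reporter in xylem, while the cell type tags swap the pair, and the groups are therefore named WOX5 and TMO5 after their reporters. The labels do not state that the 3 arrays of a group came from separate cultures, and p-values then measure the spread between arrays, which may be technical. In these bulk samples, fewer cells of a type and less RNA per cell cannot be told apart.

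Values are intensities on the linear scale of the deposited table, and tests were run on log2 intensities. Background, taken from 27 bacterial control probe sets without a spike, lay at an intensity of 31.1 for WOX5 and 23.4 for TMO5. WOX5 replicate 2 stood apart from the other WOX5 arrays over the probe sets left after dropping the dimmest 1/3, with correlations of 0.943 and 0.944 to them against 0.982 between the other two. The median intensity ranged from 91.7 to 92.6 in WOX5 and from 68.1 to 74.5 in TMO5. For the deposited scale the median log2 difference over all probe sets was 0.03. Quantile normalization moved it to -0.14 and centring each array on its median to -0.35, and differences are to be read against these shifts. Higher calls in WOX5 made up 60.1% of all calls on the deposited scale, 47.2% after quantile normalization and 29.7% after centring. Of 8 listed quiescent centre markers 4 were measured, AGL42, BBM, JKD and BRL1, and all passed as higher in WOX5, as did 12.7% of all measured genes. BBM passed narrowly (limma adjusted p = 0.048). The count was 3 after quantile normalization or centring, and 3 or 4 when 1 array was left out. The cortex marker AT1G62500 was also higher in WOX5, 12.3-fold (log2 difference 3.62, limma adjusted p = 0.0026), and its part in the results was not tested. It was 1 of 4 measured markers of other root cells. The other 3 did not pass, with log2 differences of 0.77 (AT1G65570), -1.35 (EXPA7) and -0.67 (EXPA18). Only 2 of 10 xylem markers were measured, PHV, which passed as lower in WOX5, and LHW, which did not pass. WOX5 and TMO5 themselves had no single-gene probe set, so the reporters' own transcripts were not checked.

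The comparison of WOX5-marked with TMO5-marked cells asked which chaperone transcripts differ between these root cell populations. Among the 12 measured members, 1 was higher in WOX5 cells and 0 were lower in limma's test over all 22746 probe sets, at a Benjamini-Hochberg adjusted p under 0.05. Over all measured genes, 12.7% passed as higher and 9.43% as lower, 22.2% in either direction, and over all probe sets 23.8% passed. At an unadjusted p under 0.05 the members counted 1 higher and 3 lower, where 19.3% of all measured genes were higher and 17.2% lower. The median log2 difference of the members was -0.13, against 0.02 over all measured genes, and 8 of the 12 lay below 0, as did 48.9% of all measured genes. Groups did not overlap for 4 of the 12 members, 1 higher and 3 lower in WOX5, against 44.5% of all measured genes. The 2 measured classes differed in another respect, the spread between arrays of a group, which was wide for every small HSP above background and narrow for 3 of the 4 HSP70s.

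**Figure D1:**
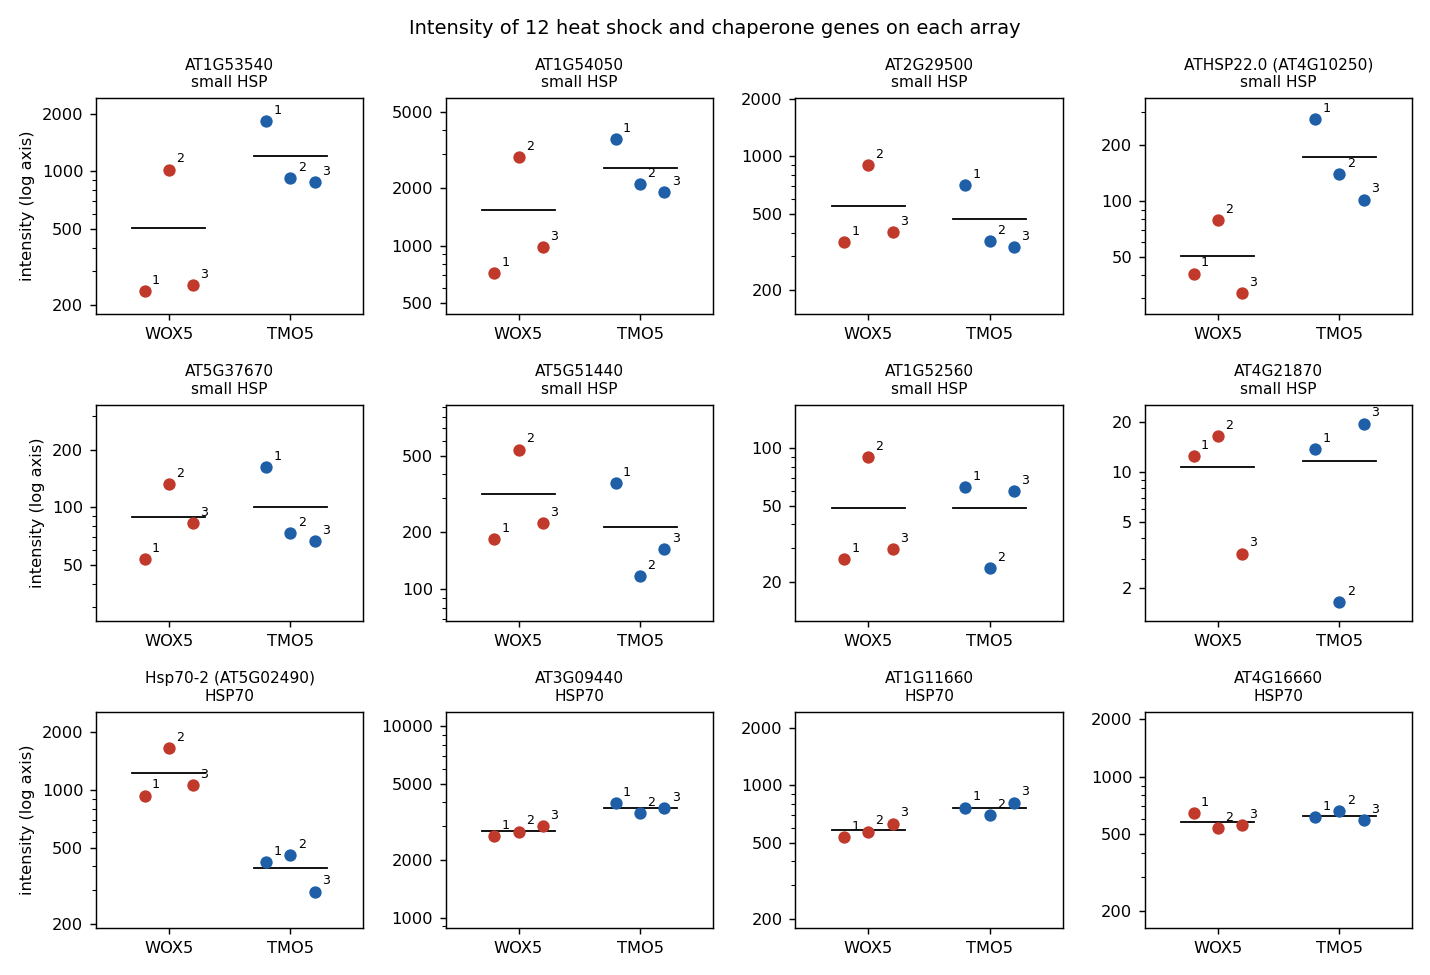
Intensity of the 12 measured members on each array, on a log axis that differs between panels, with WOX5 arrays in red, TMO5 arrays in blue, replicate numbers beside the points and the group mean as a line. WOX5 replicate 2 is the highest WOX5 point in all 8 small HSP panels, and the groups separate upward in WOX5 for Hsp70-2 alone.

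The cytosolic HSP70 gene Hsp70-2 (AT5G02490) was the member that passed. Its intensity was 935, 1662 and 1061 on WOX5 replicates 1 to 3 and 419, 456 and 294 on TMO5 replicates 1 to 3. The lowest WOX5 array thus lay above the highest TMO5 array, a separation seen upward in WOX5 for 22.5% of all measured genes. The mean intensities were 1219 ± 389 and 390 ± 84.8 (SD, n = 3). Fold and log2 differences are taken between means of log2 values throughout. The difference was 3.08-fold (log2 difference 1.63 ± 0.30 SE, limma adjusted p = 0.016). Hsp70-2 lies beside HSC70-1, another cytosolic HSP70 gene, in the gene table, and whether its probe set also reads RNA of such close relatives was not tested. Without WOX5 replicate 2 the log2 difference was 1.38 (limma adjusted p = 0.027).

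The share of all measured genes that passed moved with the processing, and the members' counts under each alternative are to be read against it. Higher calls took 9.9% of genes after quantile normalization, 8.78% after centring, 14.3% with a floor, 23.8% of those left once dim probe sets were dropped, 16.1% with a variance trend and 6.72% with a replicate block. Lower calls took 12.9%, 22.8%, 13%, 22.3%, 14.2% and 2.31% under the same settings in that order. Without WOX5 replicate 1, 2 or 3 the higher share was 8.41%, 11.3% or 8.97%, and the lower share 5.15%, 8.78% or 5.54%. Without TMO5 replicate 1, 2 or 3 the higher share was 8.81%, 8.37% or 8.43%, and the lower share 3.6%, 3.08% or 3.86%. Hsp70-2 passed as higher in each of these fits.

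AT3G09440, a constitutive cytosolic HSP70, went the other way in its values. It stood at 2666, 2811 and 3000 in WOX5 and at 3956, 3505 and 3723 in TMO5 cells. The groups did not overlap, but the log2 difference of -0.40 ± 0.14 (SE) did not pass (limma adjusted p = 0.096). It passed as lower after centring, with a floor at the 20th percentile, when dim probe sets were dropped and with an intensity trend in the variance, at limma adjusted p from 0.014 to 0.046. After quantile normalization its log2 difference was -0.025 (limma adjusted p = 0.92), so its size depends on the scaling.

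AT1G11660, of the HSP110-like branch that exchanges nucleotide on HSP70, had a similar profile. Its values were 538, 573 and 631 in WOX5 and 764, 696 and 812 in TMO5 cells. These groups did not overlap either, and the log2 difference of -0.38 ± 0.15 (SE) did not pass (limma adjusted p = 0.12). It passed as lower with centred arrays, with the floor and with the trend (adjusted p = 0.019, 0.035 and 0.048). Downward separation in WOX5 was seen for 22.1% of all measured genes.

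The endoplasmic reticulum relative AT4G16660, also HSP110-like, showed the smallest difference of the HSP70s. It gave 644, 539 and 558 in WOX5 and 617, 661 and 592 in TMO5 cells, with overlapping groups and a log2 difference of -0.11 ± 0.15 (SE; limma adjusted p = 0.64). The 3 HSP70s other than Hsp70-2 therefore ranged from -0.40 to -0.11 on the log2 scale. Within a group their highest array exceeded the lowest by at most 1.19-fold.

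Small HSPs had no member past the threshold, with 0 of 8 higher and 0 lower in limma's test, 1 lower at an unadjusted p under 0.05 (17.2% of all measured genes), and 2 lower with an intensity trend and robust variances. Their log2 differences ran from -1.75 to 0.56, with a median of -0.13. AT1G54050, assigned to the class III small HSPs, stood at 716, 2907 and 979 in WOX5 cells and at 3612, 2105 and 1900 in TMO5 cells. WOX5 replicate 2 lay within the TMO5 range, and the other WOX5 arrays lay below it. The log2 difference was -0.94 ± 0.58 (SE; limma adjusted p = 0.29).

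AT1G53540, a class I cytosolic small HSP, repeated this arrangement. It stood at 237, 1021 and 256 in WOX5 and at 1831, 926 and 876 in TMO5 cells. Again WOX5 replicate 2 lay within the TMO5 range and the other WOX5 arrays lay below it. The mean intensities were 505 ± 447 and 1211 ± 537 (SD, n = 3). The log2 difference, taken between means of log2 values, was -1.53 ± 0.66 (SE) and did not pass (limma adjusted p = 0.15). It passed as lower with an intensity trend (adjusted p = 0.039).

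ATHSP22.0 (AT4G10250), the small HSP of the endoplasmic reticulum, was the 1 small HSP whose groups did not overlap. It was dim in WOX5 cells, at 40.8, 79.2 and 32.0 and so close to the background there, against 276, 139 and 102 in TMO5 cells. The log2 difference of -1.75 ± 0.50 (SE) missed the threshold (limma adjusted p = 0.057). Its limma adjusted p was 0.031 after quantile normalization, 0.021 after centring, 0.017 once dim probe sets were dropped and 0.0086 with the trend.

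Without WOX5 replicate 2, AT1G53540, AT1G54050 and ATHSP22.0 all passed as lower in WOX5, with log2 differences of -2.21, -1.54 and -2.13 (limma adjusted p = 0.026, 0.049 and 0.046). That makes 3 of the 8 small HSPs, where 8.78% of all measured genes passed as lower in the same fit. The array left out was the brightest WOX5 array for all 8, so leaving it out lowers their WOX5 means. Leaving out any other single array gave 0 small HSPs lower, where 3.08% to 5.54% of all measured genes passed as lower. The class median moved from -0.13 to -0.57 without WOX5 replicate 2. It was -0.50 after centring, -0.43 after quantile normalization, 0.06 without WOX5 replicate 1, 0.20 without TMO5 replicate 1 and -0.74 without TMO5 replicate 2, so its sign changed with single arrays.

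The other class I cytosolic small HSP, AT2G29500, had values of 356, 901 and 401 in WOX5 and 709, 360 and 335 in TMO5 cells. The groups overlapped, and the log2 difference was 0.20 ± 0.48 (SE; limma adjusted p = 0.80).

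Small HSPs of mitochondria and peroxisomes also had overlapping groups. AT5G51440, a mitochondrial small HSP, gave 184, 538 and 221 in WOX5 and 361, 117 and 162 in TMO5 cells, a log2 difference of 0.56 ± 0.58 (SE; limma adjusted p = 0.53). AT1G52560, a second mitochondrial form, gave 26.4, 89.5 and 29.7 in WOX5, and in TMO5 cells 62.7 and 59.7 on replicates 1 and 3 and the background level on replicate 2. AT5G37670, assigned to the peroxisome, gave 53.7, 132 and 82.9 against 163, 73.1 and 66.7. The last 2 genes had log2 differences of -0.11 ± 0.62 and -0.15 ± 0.48 (SE; limma adjusted p = 0.91 and 0.85). AT4G21870, a cytosolic form of class V, stayed within background in both groups, between 1.65 and 19.6, so its log2 difference of 0.19 ± 1.12 (SE) is poorly measured.

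**Figure D2:**
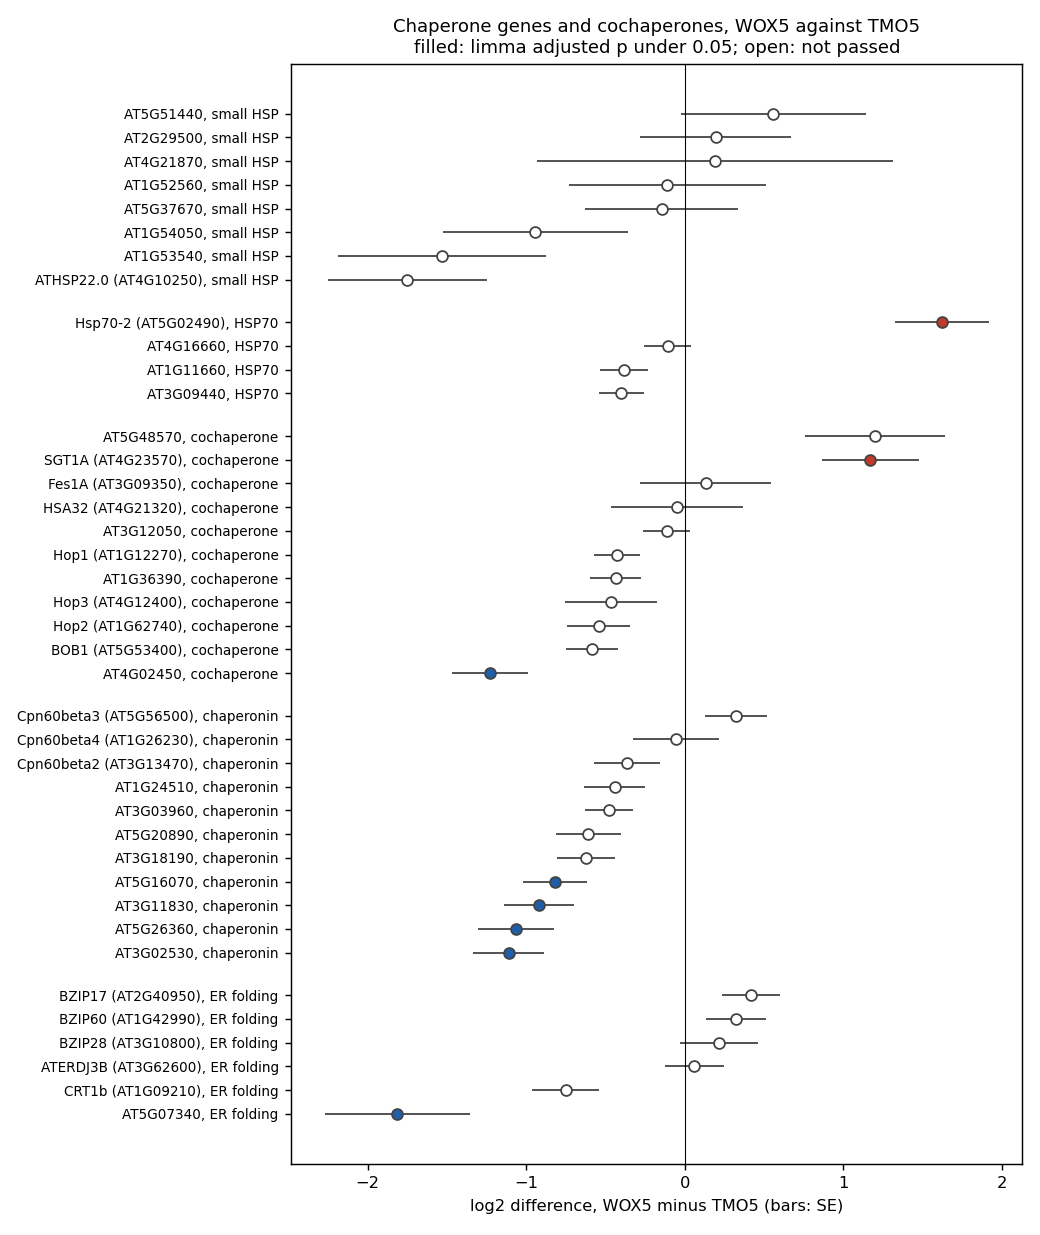
Log2 difference, WOX5 minus TMO5, with its SE for the 12 members and for the measured cochaperones, chaperonins and genes of folding in the endoplasmic reticulum (ER). Filled points passed the limma test at an adjusted p under 0.05 (red higher, blue lower), and open points did not.

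By compartment, the 7 cytosolic members had a median log2 difference of -0.38 and included the 1 call. The 2 members of the endoplasmic reticulum stood at -1.75 and -0.11, the 2 mitochondrial members at -0.11 and 0.56, and the peroxisomal member at -0.15. No plastid member was measured. With 1 or 2 genes in each of the organelles, compartments were described only.

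The small HSPs shared a profile across arrays. Members were listed by family and locus tag, but with earlier results of these data known. WOX5 replicate 2 was the brightest WOX5 array for 8 of 8 small HSPs, where 39.6% of all measured genes had it brightest. Without AT4G21870, which was within background in both groups, the count was 7 of 7. TMO5 replicate 1 was the brightest TMO5 array for 7 of 8, the exception being AT4G21870 within background, where the share of all genes was 33.4%. Both arrays were brightest for 7 of 8 small HSPs, against 13.7% of all measured genes and 0 of the 4 HSP70s. The 2 arrays were picked from these same small HSP values, so the counts describe the profile and do not test it.

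In size, the 7 small HSPs above background lay at a median of 0.94 above the group mean on WOX5 replicate 2, in log2 units, and at -0.64 and -0.37 on WOX5 replicates 1 and 3. On TMO5 replicates 1, 2 and 3 the medians were 0.69, -0.30 and -0.38. Over all measured genes the 6 medians lay between -0.01 and 0.02. The highest and lowest WOX5 arrays differed by 4.31-fold for AT1G53540 and 4.06-fold for AT1G54050, whereas for the HSP70 AT3G09440 they differed by 1.13-fold. Hsp70-2 lay between, at 1.78-fold, with WOX5 replicate 2 highest and TMO5 replicate 2 the highest of its group.

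**Figure D3:**
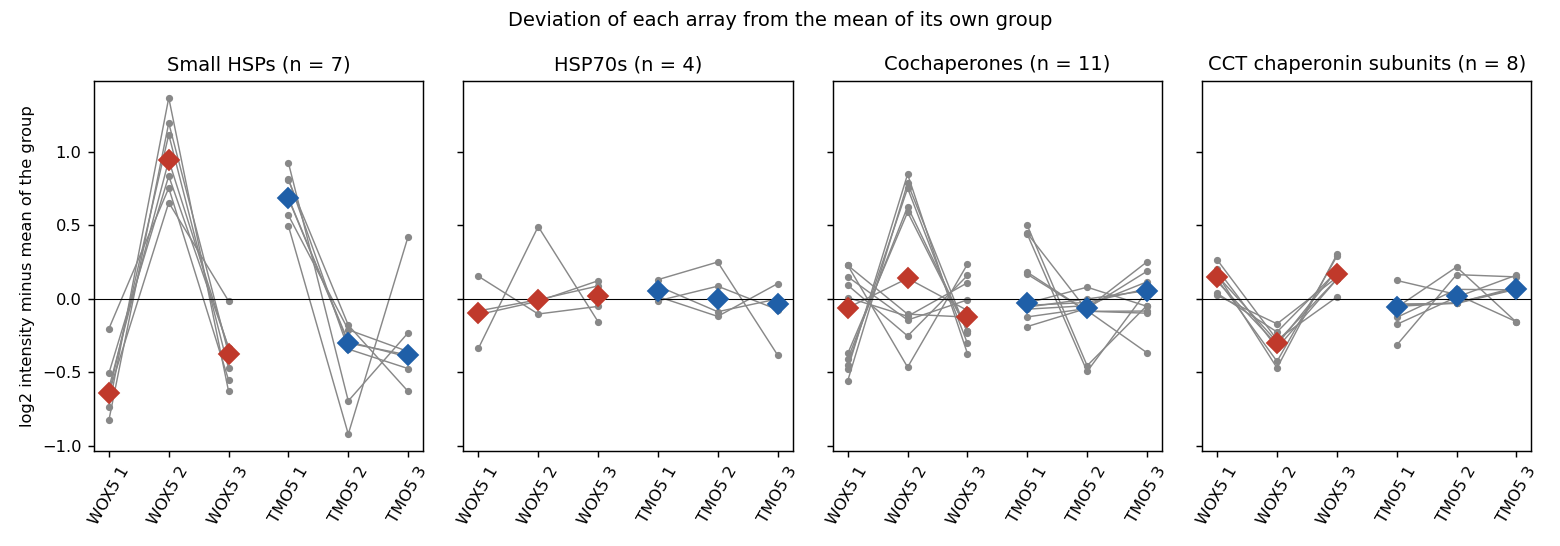
Deviation of each array from the mean of its own group, in log2 units, for small HSPs above background, HSP70s, cochaperones and CCT subunits. Grey lines join the values of one gene within a group, and diamonds mark the median, which for small HSPs is 0.94 on WOX5 replicate 2 and 0.69 on TMO5 replicate 1.

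The spread within groups, pooled over both as an SD on the log2 scale, ran from 0.67 to 0.94 for these 7 small HSPs. Of the 7, AT1G52560 (SD 0.89) was above background in its group means only. Its WOX5 replicates 1 and 3, at 26.4 and 29.7, lay under the WOX5 background of 31.1, which is a level for group means. The backgrounds of these 2 arrays alone were 36.1 and 25.2, so replicate 1 lay under its own and replicate 3 above it. Its TMO5 replicate 2 lay at the background level. The median over the 8022 genes above background in both groups was 0.24, and the least variable of the 7 stood at percentile 97.2 of those genes. Of the HSP70s, Hsp70-2 had an SD of 0.39 and the other 3 had SDs from 0.09 to 0.11. AT1G54050, for example, had an SD of 0.83 and AT3G09440 one of 0.09, so a difference between groups had to be larger to pass for the former.

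**Figure D4:**
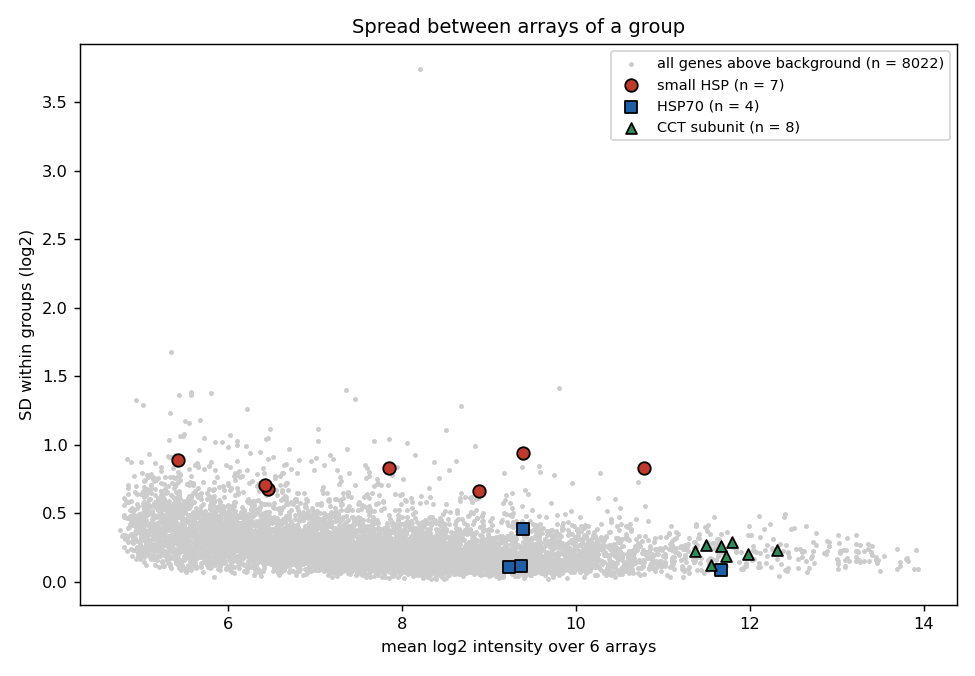
SD within groups on the log2 scale against mean log2 intensity over 6 arrays, for the 8022 genes above background in both groups (grey) with small HSPs, HSP70s and CCT subunits marked. The 7 small HSPs lie between 0.67 and 0.94 at all intensities, and 3 HSP70s lie near 0.1.

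Other measures of these arrays stand beside the small HSP profile as follows. STZ (ZAT10), a zinc finger gene known to respond to wounding, was 947, 1265 and 943 in WOX5 and 758, 494 and 412 in TMO5 cells, also brightest on WOX5 replicate 2 and TMO5 replicate 1. The other measured genes of the wounding and protoplasting list, WRKY6 and WRKY53, were brightest on other TMO5 arrays, WRKY6 also on WOX5 replicate 3. Between groups, WRKY6 passed as higher in WOX5 (log2 difference 1.57, limma adjusted p = 0.0066). WRKY53, within background in WOX5, passed as lower (-1.14, limma adjusted p = 0.037), and STZ did not pass (0.96, limma adjusted p = 0.059). The ratio of the 3′ to the 5′ probe set for GAPDH was 1.15, 1.08 and 1.07 on WOX5 replicates 1 to 3 and 1.33, 1.22 and 1.21 on TMO5 replicates 1 to 3. For actin it was 3.12, 3.05 and 3.73 and then 3.31, 2.76 and 3.04. WOX5 replicate 2 did not have the highest ratio of its group for either transcript, and TMO5 replicate 1 had the highest for both. Of 12 listed markers of root cap, epidermis and inner ground tissue 4 were measured. On WOX5 replicate 2, which stood apart from the other WOX5 arrays, all 4 were the lowest of the group. The share of all measured genes lowest on that array was not computed, so this count has nothing to be read against. The root cap gene AT1G65570 and the cortex gene AT1G62500 stood there at 22.4 and 249, against 123 and 521 on replicate 1. EXPA7 gave 36.4, 28.8 and 61.6 on WOX5 replicates 1 to 3, and EXPA18 gave 98.4, 67.4 and 70.4. TMO5 replicate 1 was the brightest TMO5 array for 3 of the 4, where the share of all measured genes was 33.4%. The part of cell composition, handling or RNA quality in the small HSP profile was not tested.

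Cochaperones, which load, release or link HSP70 and HSP90, were measured for 11 of 27 listed genes, with 1 higher, 1 lower and 9 that did not pass. Over all measured genes 12.7% passed as higher and 9.43% as lower. SGT1A, a cochaperone of HSP90, was higher in WOX5 cells, at 152, 311 and 173 against 101, 84.2 and 83.4, a 2.25-fold difference (limma adjusted p = 0.044). Quantile normalization ended that call (limma adjusted p = 0.096), as did centring (adjusted p = 0.094) and the loss of any single array except WOX5 replicate 2 (adjusted p = 0.054 to 0.13).

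AT4G02450, assigned to the p23 cochaperones of HSP90, was lower in WOX5 cells. Its values were 2019, 1249 and 2030 in WOX5 and 3845, 3910 and 4374 in TMO5 cells, a 2.34-fold difference (log2 difference -1.23 ± 0.24 SE, limma adjusted p = 0.019). Without any 1 TMO5 array the adjusted p was 0.058 to 0.067. The 3 HOP genes, whose products bridge HSP70 and HSP90, did not pass, with log2 differences of -0.43 (Hop1), -0.54 (Hop2) and -0.46 (Hop3).

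Some cochaperone genes known to be induced by heat had the array profile of the small HSPs. Fes1A, an exchange factor of HSP70, stood at 641, 1476 and 710 in WOX5 and at 1130, 583 and 775 in TMO5 cells. HSA32, a heat-induced protein of acquired thermotolerance, stood at 75.8, 192 and 94.9 against 157, 109 and 89.4. AT5G48570, named ROF2 among its synonyms and an immunophilin of the heat response, stood at 206, 517 and 222 against 169, 88.6 and 130. In all 3, WOX5 replicate 2 and TMO5 replicate 1 were the brightest arrays of their groups. The same held for 5 of the 11 cochaperones, against 13.7% of all measured genes. None of the 3 passed the test between groups, with log2 differences of 0.13, -0.05 and 1.20.

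Chaperonins are ring-shaped folding chambers, and the cytosolic CCT ring folds actin and tubulin among other clients. All 8 measured CCT subunit genes had lower values in WOX5 than in TMO5 cells with no overlap between groups, and 4 of them passed. Of all measured genes 22.1% separated downward and 9.43% passed as lower. AT3G02530 stood at 2162, 1466 and 2406 in WOX5 and at 4101, 4166 and 4490 in TMO5 cells, 2.16-fold lower (limma adjusted p = 0.022). AT5G26360 stood at 2766, 1778 and 3036 against 5019, 5031 and 5381, 2.09-fold lower (limma adjusted p = 0.029). AT3G11830 and AT5G16070 were 1.89-fold and 1.76-fold lower (limma adjusted p = 0.036 and 0.039).

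The median log2 difference of the 8 CCT genes was -0.72, and that of the 3 plastid chaperonin genes measured (Cpn60beta2, Cpn60beta3 and Cpn60beta4), none of which passed, was -0.05. CCT genes were dimmest on WOX5 replicate 2, where their median deviation from the group mean was -0.30. Without that array 3 passed, AT3G11830 losing its call (adjusted p = 0.065). After centring the count was 8, where 22.8% of all measured genes passed as lower, and the median -1.10. After quantile normalization the count was 0 and the median -0.38, so both depend on the scaling. Without WOX5 replicate 1 and without TMO5 replicate 2 or 3 it was 0, without TMO5 replicate 1 it was 1 and without WOX5 replicate 3 it was 2.

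For protein folding in the endoplasmic reticulum, 6 of 20 listed genes were measured and 1 passed, as lower. Of all measured genes 9.43% passed as lower. AT5G07340, assigned to the calnexins, lectin chaperones of glycoproteins, was 205, 66.7 and 186 in WOX5 and 461, 450 and 531 in TMO5 cells, 3.51-fold lower (limma adjusted p = 0.040). Without WOX5 replicate 2 the log2 difference was -1.30 (adjusted p = 0.011), against -1.81 with it, and without any 1 other array the adjusted p was 0.054 to 0.11. BZIP60 and BZIP28, transcription factors of the unfolded protein response, did not pass, at 0.33 ± 0.19 and 0.22 ± 0.24 (log2 difference ± SE, limma adjusted p = 0.27 and 0.56). CRT1b, a calreticulin, had a log2 difference of -0.75 that did not pass (limma adjusted p = 0.053). The 21 listed heat stress transcription factors, HSFA2 and HSFB4 among them, had 0 measured genes and were not analysed here.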

How the data were processed

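RNA of 6 sorted root samples was hybridised to Affymetrix arrays, labelled in 1 or 2 cycles per the labels' protocols. The authors deposited 22810 intensity values per array on a linear scale, and the mean of each array is 250.0 once the lowest and highest 2% are trimmed. The sources used here do not give the software.

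Values under 1 were raised to 1 (1036 values), log2 was taken, and the 22746 probe sets other than 64 controls were fitted in limma (version 3.58.1, R 4.3.3) by lmFit and eBayes for the difference of WOX5 from TMO5, with Benjamini-Hochberg adjustment. The fit was tested on simulated data. Probe sets were matched to genes by gene identifier, 13513 to 1 gene, 503 to several and 8730 to none here, and named through the TAIR10.1 gene table. Precision is limited by how few arrays there are. Background is the 95th percentile of the control probe sets' group means.

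Every measured member is named. Pathway genes named are the 2 largest rises and falls that passed in a list, or else the gene of smallest p, with HSFA2, HSFB4, BZIP60 and BZIP28. Others were chosen after their values were seen. The members and lists were chosen with earlier results of these data known. Alternatives were quantile normalization, centring, a floor, a filter on dim probe sets, a variance trend, a replicate block and leaving out each array.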

Additional observations from a re-analysis of the deposited data

How the results depend on the processing

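The call for Hsp70-2 and the count of 1 member higher held in all 12 alternative fits, with log2 differences from 1.25 to 1.79 and adjusted p from 0.00048 to 0.049. Members lower in WOX5 numbered 0 as reported, 1 after quantile normalization, 3 after centring, 2 when values under percentile 20 were raised to it, 2 when the dimmest 1/3 of probe sets were dropped, 4 with an intensity trend and robust variances, and 0 to 3 when 1 array was left out. CCT subunits lower numbered 4 as reported, 8 with centred arrays, 7 with the filter, 7 with the trend, 6 with the floor, 0 with quantile normalization and 0 to 3 when 1 array was left out. Calls over all probe sets numbered 5411, and 2827 to 4854 when 1 array was left out. With a replicate block they numbered 2270, with 0 CCT subunits lower and Hsp70-2 still passing (adjusted p = 0.041). The deviations of arrays with the same number had correlations of -0.05, 0.02 and 0.02. With 3 arrays per group these values cannot show whether such arrays share more than a number, which was not tested. Of 251 values for 21 genes, 175 kept their direction and their side of the threshold, 44 lost a call, 15 gained one and 17 changed sign, none of which passed before or after. With centred arrays AT1G42990 (BZIP60) was at -0.053, AT2G29500 at -0.18, AT3G10800 (BZIP28) at -0.16 and AT4G21870 at -0.19, and AT4G21870 was at -0.029 with the floor. Leaving out 1 array gave log2 differences of -0.67 to 0.21 for AT1G52560, -0.22 to 0.54 for AT2G29500, -0.026 to 0.36 for AT3G10800, -0.91 to 0.91 for AT4G21870 and -0.47 to 0.26 for AT5G37670. The causes of these changes were not tested, beyond the shift of the array medians given above. No member had a second single-gene probe set, so the planned change of probe set was not run.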

Other observations

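Genes were ranked by how far their arrays moved along the small HSP profile, a choice made after seeing the data and given as a description with no test. For each of the 8022 genes above background in both groups, the deviations of the 6 arrays from their group means were regressed on the mean deviations of the 7 small HSPs, each small HSP being left out of its own profile. A slope of 1 means a deviation along the profile as large as theirs, and the median slope was 0.01. Rank follows the slope, which grows with the size of a gene's variation, and not the correlation with the profile. PSBW ranked 9 with a correlation of 0.60 over the 6 arrays, and AT2G29500 ranked 26 with one of 0.99. All 7 small HSPs fell within the first 33 genes and 4 of them within the first 20, with AT1G53540 at rank 2 (slope 1.27) and ATHSP22.0 at rank 33 (slope 0.80). ROF2 (AT5G48570), Fes1A and HSA32 ranked 38, 49 and 58, with slopes of 0.79, 0.75 and 0.74. Of the other cochaperones, SGT1A and Hop3 had slopes of 0.51 and 0.48, and Hop1 one of 0.07. The slopes of BOB1, AT3G12050, AT1G36390, Hop2 and AT4G02450 were negative, from -0.10 to -0.33.

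The first rank went to AT2G20560, unnamed in the gene table, at 145, 649 and 128 on WOX5 replicates 1 to 3 and 305, 156 and 131 on TMO5 replicates 1 to 3. MSRB5, whose name is that of a methionine sulfoxide reductase, ranked 3 at 258, 1592 and 335 against 157, 119 and 136. Slopes of at least 0.5 were found for 218 genes (2.72%). The 8 CCT subunits had negative slopes, from -0.12 (AT3G03960, rank 5806) to -0.34 (AT3G11830, rank 7420), and the calnexin AT5G07340 ranked 7946 (slope -0.71). All slopes rest on the same 6 arrays, and WOX5 replicate 2 and TMO5 replicate 1 carry most of the profile.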
